A study of Mus musculus with 6 samples.

Results

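Glycolysis breaks glucose down to pyruvate in the cytosol, and glycogen is the branched glucose polymer that muscle fibres build from surplus glucose and break down during contraction. Described here are 35 mouse genes of both pathways: the transporters that carry glucose in and lactate out, the enzymes of each glycolytic step, the enzymes that make and break down glycogen, and the subunits that control them. They were chosen by name as rows of the deposited count table, with the row of more reads taken where a symbol stood on 2 rows, which concerned Aldoa only. All 35 were found among 52030 gene symbols, and all 35 passed the filter on low counts. Many steps have several isoforms, each from its own gene. Skeletal muscle fibres mainly use forms such as Pgam2, Eno3, Pfkm and Pygm, while other cells, immature muscle cells included, rely on forms such as Pgam1, Eno1, Pfkl and Pygl. On that background the members were divided into 12 muscle-type forms, 12 other forms (ubiquitous, liver, brain or heart) and 11 genes with no counterpart in the list. The division was not strict. Phka1 and Phkg1 were counted as muscle-type although their counterparts are not in the list. Gys1, the muscle glycogen synthase, was kept among the 11.

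RNA-seq covered muscle of wild-type c57b6l mice, with 3 mice and libraries for the agent named click and 3 for the agent named EDC. The labels give neither the muscle, the dose, the time nor an untreated group, and the comparison is therefore of click relative to EDC. Reads in the table summed to 34472421 to 39305779 per library. Fast fibre markers were abundant in every library, as in skeletal muscle, with a summed level of 170611 to 258098 CPM in click and 115277 to 195011 CPM in EDC. Mitochondrially encoded genes took 18.9% to 30.2% of the reads in click and 14.8% to 17.8% in EDC, and each group held 1 library with reads of Xist and none of Ddx3y, as in a female (replicate 1 of each). The unit CPM is the read count of a gene scaled to a fixed library size, here with TMM factors, which set libraries on the same footing for the bulk of genes.

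Muscle-type isoforms tended to lie higher in click than in EDC and the other isoforms lower, by amounts that no member's edgeR test separated from the spread between libraries. With TMM scaling the log2 fold changes of the 12 muscle-type forms were all positive, from 0.18 for Slc16a3 to 0.82 for Pgam2, with a median of 0.52, but with library totals alone or scaling on fast fibre reads only 8 of the 12 were positive and the median was 0.03 and 0.05. Of all genes tested, 51.3% were positive. Among the 12 other forms 9 were negative, with a median of -0.51, and 10 were negative under those scalings. The exceptions were Ldhb, Ppp1r3c and Slc16a1. The 11 genes without a counterpart had a median of 0.48 with TMM scaling and ranged between 0.00176 for Gys1 and 1.06 for Ugp2. Gys1, a muscle form kept in this class, lay below the range of the 12 muscle-type forms. The median of all genes tested was 0.02, and the library-total and fast-fibre scalings moved it by -0.47 and -0.50. Relative to that median, the muscle-type forms stood at 0.51 with TMM and at 0.49 and 0.54 with the other scalings, and the other forms at -0.52, -0.46 and -0.50. The muscle-type median was 0.33 once EDC replicate 3 was left out. That of the other forms moved to -0.79 when click replicate 3 was left out and to -0.33 when click replicate 2 was.

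**Figure D1:**
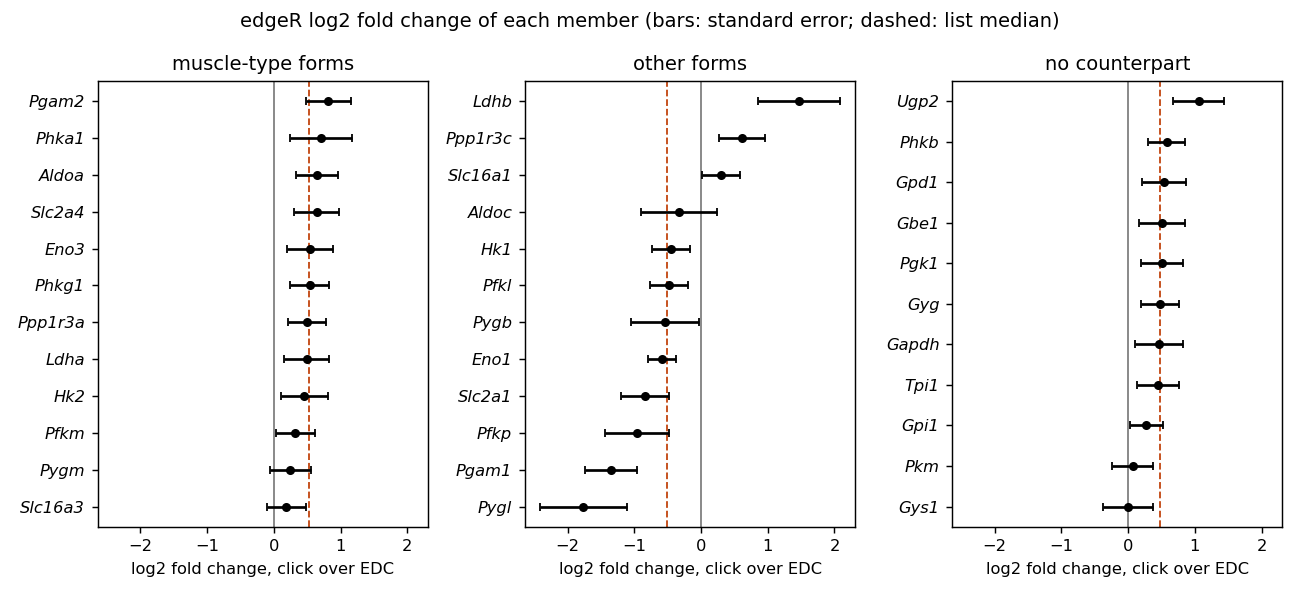
Log2 fold change of each member in click over EDC, from edgeR with TMM scaling, with its standard error (n = 3 libraries each), in 3 panels for muscle-type forms, other forms and genes without a counterpart; the dashed line is the median of the panel. All 12 muscle-type forms lie right of 0 (8 of 12 with library totals alone or scaled on fast fibre reads), and 9 of the 12 other forms lie left of it (10 of 12 with those scalings).

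None of the 35 members passed the edgeR test between click and EDC, with adjusted p-values of 0.298 to 0.999. That test called 0.00633% of the 15797 genes tested. At an unadjusted edgeR p under 0.05 were 7 members (Pgam2, Ldhb and Ugp2 at higher levels in click, Pgam1, Eno1, Pygl and Slc2a1 at lower), or 20% of members, where 15.2% of all genes tested lay there. Leaving out click replicate 1, 2 or 3 changed that number to 2, 2 or 12 members (5.71%, 5.71% or 34.3% of members), where 11.8%, 9.996% or 21.6% of all genes tested lay there. Leaving out EDC replicate 1, 2 or 3 changed it to 1, 16 or 2 members (2.86%, 45.7% or 5.71%), where 8.81%, 18.5% or 6.63% of all genes did. Values of the 3 click libraries did not overlap those of the 3 EDC libraries in 4 members (Aldoa and Ugp2 above, Pgam1 and Eno1 below), a share of 11.4%, where it was 22.2% of all genes tested (9.84% with click above, 12.4% with click below). Pgam1 and Eno1 were also without overlap with library totals alone and with scaling on fast fibre reads. Aldoa was so with TMM scaling only, and Ugp2 not with library totals. Pgam2 lay above without overlap under both of those scalings, and Pygm, a muscle-type form, lay below with fast fibre scaling. Of all genes tested, 23.6% lay below without overlap with library totals and 16.4% with fast fibre scaling. The shares that lay above were 1.89% and 2.03%. The DESeq2 Wald test called 1 member, Pgam1 (adjusted p = 0.0376), and 3.84% of all genes tested (1.56% higher and 2.27% lower in click). limma-voom called 0, with 6 members at an unadjusted p under 0.05, where 16.3% of all genes tested lay there.

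The libraries of a group were not alike. EDC replicate 3 held the lowest level of 10 of the 12 muscle-type forms and of 9 of the 11 genes without a counterpart. Click replicates 1 and 2 held the highest level of 7 and 4 of the muscle-type forms. Of the other forms, 6 were highest in EDC replicate 3 and 7 were lowest in click replicate 2. EDC replicate 2 was above click replicate 3 for every muscle-type form except Aldoa. Together the 35 genes took 5.21, 5.05 and 5.0% of the reads outside mitochondrially encoded genes in click replicates 1 to 3, against 4.89, 5.20 and 3.64% in EDC replicates 1 to 3. That share was lowest in EDC replicate 3 and alike in the other libraries. Of all named-gene reads the share was 3.63, 3.69 and 4.05% in click replicates 1 to 3, against 4.17, 4.27 and 3.03% in EDC. By that measure EDC replicates 1 and 2 lay above every click library and EDC replicate 3 below.

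**Figure D2:**
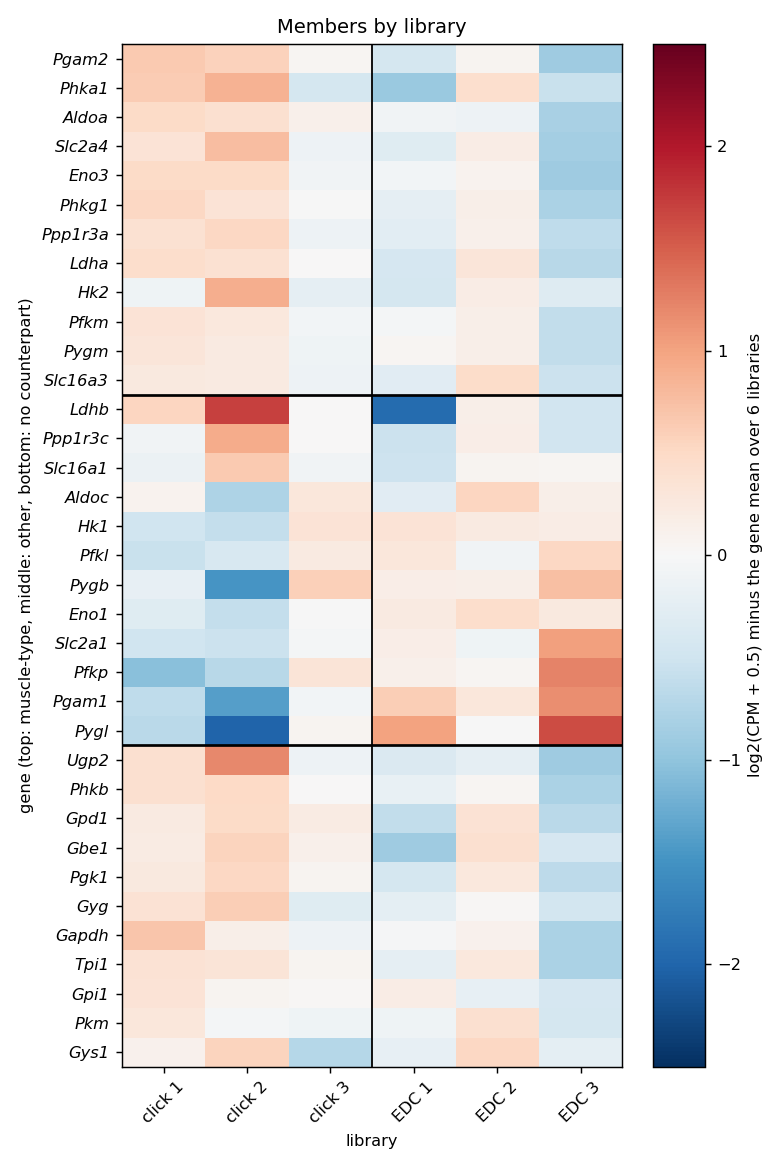
Level of each member (rows) in each library (columns) as log2(CPM + 0.5) minus the mean of the gene over 6 libraries, with TMM scaling; muscle-type forms are on top, other forms in the middle and genes without a counterpart at the bottom. EDC replicate 3 has the lowest level of 10 of 12 muscle-type forms, and click replicate 2 the lowest of 7 of 12 other forms.

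Levels compared between genes are per kb of exon, as a mean over the 6 libraries. Pgam2 was the most abundant member at 2927 CPM per kb, followed by Aldoa at 2684, Eno3 at 2561, Gapdh at 1464 and Pygm at 1399. Per kb of the longest transcript Aldoa came first, at 5043 CPM per kb, before Pgam2 at 2927 and Eno3 at 2848. Transporters and the hexokinase step were far lower, with Slc2a4 at 64.3 and Hk2 at 22.4 CPM per kb. The least abundant members were Aldoc, the brain-type aldolase, at 0.355 CPM per kb (12 to 66 reads per library) and Pfkp, the platelet-type phosphofructokinase, at 1.13 CPM per kb.

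Glucose enters fibres through the insulin-responsive transporter encoded by Slc2a4 and, in most other cells, through that of Slc2a1. Slc2a4 stood at 265, 359.8 and 192 CPM in the click libraries 1 to 3, against 169, 239 and 116 CPM in the EDC libraries 1 to 3. The groups overlapped, with EDC replicate 2 above click replicate 3, and the log2 fold change was 0.64 (standard error 0.34, adjusted p = 0.389 by edgeR). Slc2a1 stood at 5.93, 5.75 and 8.22 CPM in the click libraries 1 to 3, against 9.63, 7.93 and 18.1 CPM in the EDC libraries 1 to 3. Its highest value by a wide margin was that of EDC replicate 3, the groups overlapped between click replicate 3 and EDC replicate 2, and the log2 fold change was -0.84 (standard error 0.35, adjusted p = 0.326 by edgeR). With EDC replicate 3 left out it was -0.40.

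Hexokinases trap glucose in the cell as glucose phosphate. Hk2, the form of insulin-responsive muscle, stood at 117, 238 and 109 CPM in the click libraries 1 to 3, against 93.9, 144 and 102 CPM in the EDC libraries 1 to 3, a log2 fold change of 0.45 (standard error 0.35, adjusted p = 0.529 by edgeR). Click replicate 2 was the only click library above EDC replicate 2. Hk1, the ubiquitous form, stood at 12.3, 11.4 and 22.2 CPM in the click libraries 1 to 3, against 22.4, 20.5 and 19.97 CPM in the EDC libraries 1 to 3, with click replicates 1 and 2 low and click replicate 3 at the EDC level. Its log2 fold change was -0.45 (standard error 0.28, adjusted p = 0.447 by edgeR). Gpi1, the isomerase that turns glucose phosphate into fructose phosphate, averaged 856 ± 106 CPM in click, beside 708 ± 155 CPM in EDC (SD, n = 3), and 0.27 (standard error 0.25, adjusted p = 0.592 by edgeR) on the log2 scale.

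Phosphofructokinase commits sugar to glycolysis. Pfkm, its muscle subunit, stood at 2329.7, 2205 and 1757 CPM in the click libraries 1 to 3, against 1775, 2049 and 1203 CPM in the EDC libraries 1 to 3, a log2 fold change of 0.32 (standard error 0.29, adjusted p = 0.580 by edgeR). The liver subunit Pfkl had 7.85, 8.81 and 13.8 CPM in click, against 14.3, 11 and 17.1 CPM in EDC, and the platelet subunit Pfkp had 6.15, 8.0 and 16.7 CPM in click, against 14.5, 13.8 and 31.8 CPM in EDC. Both were lowest in click replicates 1 and 2 and highest in EDC replicate 3, with log2 fold changes of -0.48 (standard error 0.29) and -0.96 (standard error 0.48). Exons of Pfkp share 748 bases with those of Pitrm1 on the opposite strand, which had 912 to 1376 reads per library, so reads of Pfkp (170 to 1601) may include some of Pitrm1.

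Aldolase splits the sugar into a pair of triose phosphates. Aldoa, the aldolase of muscle and most other tissues, stood at 10504, 9924 and 8184 CPM in the click libraries 1 to 3, against 7092, 6899 and 4267 CPM in the EDC libraries 1 to 3. All click libraries lay above all EDC libraries, and the log2 fold change was 0.65 (standard error 0.31, adjusted p = 0.355 by edgeR), but with library totals alone the groups overlapped and it was 0.16. Aldoc, the rare brain form, had 1.19, 0.437 and 1.44 CPM in click, against 0.801, 1.82 and 1.25 CPM in EDC, with the lowest value in click replicate 2, and a log2 fold change of -0.33 (standard error 0.57, adjusted p = 0.789 by edgeR). Triose phosphate isomerase, Tpi1, which interconverts these trioses, averaged 1737 ± 179.9 CPM in click, beside 1271 ± 452 CPM in EDC (SD, n = 3), with a log2 fold change of 0.45 (standard error 0.32, adjusted p = 0.491 by edgeR). Gapdh, the dehydrogenase that yields NADH, stood at 9387, 6383 and 5284 CPM in the click libraries 1 to 3, against 5687, 6194 and 3361 CPM in the EDC libraries 1 to 3, a log2 fold change of 0.47 (standard error 0.36, adjusted p = 0.528 by edgeR), and Pgk1, the first step that yields ATP, gave 0.51 (standard error 0.31, adjusted p = 0.434 by edgeR).

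Phosphoglycerate mutase moves the phosphate within phosphoglycerate. Pgam2 (chr11:5801640-5803733, minus strand, mm10), the muscle form, stood at 3618, 3412 and 2381 CPM in the click libraries 1 to 3, against 1689, 2418 and 1235 CPM in the EDC libraries 1 to 3. EDC replicate 2 lay just above click replicate 3, and the other EDC libraries lay below all click libraries. The log2 fold change was 0.82 (standard error 0.34, adjusted p = 0.321 by edgeR). Pgam1 (chr19:41911923-41918660, plus strand), the form of brain and most other tissues, stood at 18.4, 10.7 and 27.5 CPM in the click libraries 1 to 3, against 44, 35.2 and 65.2 CPM in the EDC libraries 1 to 3. All click libraries lay below all EDC libraries, with a log2 fold change of -1.35 (standard error 0.39, adjusted p = 0.298 by edgeR). Of the summed Pgam2 and Pgam1 level per kb, Pgam2 supplied 99.8, 99.9 and 99.5% in click, against 98.9, 99.4 and 97.8% in EDC. The summed level was 3744 ± 786 CPM per kb in click and 2144 ± 704 in EDC (SD, n = 3), and the groups overlapped.

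The bases before the start sites of this pair are shown because the ratio of the pair did not overlap between click and EDC. Below are 250 bases upstream of the RefSeq start site (GRCm38.p6), written 5′ to 3′ along the gene, with capitals for matches of CANNTG (the E-box bound by myogenic factors), ACGTG (the core of the hypoxia response element), TATAAA and the MEF2 motif, on either strand.
Pgam2, chr11:5803797-5804046, minus strand: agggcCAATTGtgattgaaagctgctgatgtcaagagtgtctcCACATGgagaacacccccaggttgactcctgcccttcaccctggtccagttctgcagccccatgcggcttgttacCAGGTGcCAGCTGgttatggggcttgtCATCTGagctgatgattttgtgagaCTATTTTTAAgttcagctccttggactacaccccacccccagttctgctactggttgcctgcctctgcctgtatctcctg
Pgam1, chr19:41911621-41911870, plus strand: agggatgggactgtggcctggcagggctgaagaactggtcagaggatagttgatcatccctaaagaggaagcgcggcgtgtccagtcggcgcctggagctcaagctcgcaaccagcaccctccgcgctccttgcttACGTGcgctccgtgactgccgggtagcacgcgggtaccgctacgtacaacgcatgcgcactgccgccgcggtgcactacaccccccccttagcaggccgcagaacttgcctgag
The Pgam2 stretch held 5 matches of CANNTG and 1 of MEF2, and 1 CpG dinucleotide. The Pgam1 stretch held 1 match of ACGTG, none of the other motifs, and 22 CpG dinucleotides. Promoter stretches were found for 33 of the 35 members, 45 in all because some genes have several start sites. Some stretches of the same gene overlap, as for Aldoa, Pfkm and Eno1, so part of their bases was counted more than once. CANNTG was present in 82.4% of 17 stretches of muscle-type forms, in 37.5% of 16 stretches of the other forms, in 75% of 12 stretches of genes without a counterpart, and in 66.2% of all 32851 promoters of the table. The MEF2 motif was in 2 stretches of muscle-type forms (Pgam2 and Ppp1r3a), 11.8%, in 0 stretches of the other forms and of genes without a counterpart, and in 2.92% of all promoters. ACGTG was in 47.1% of stretches of muscle-type forms, 37.5% of the other forms, 25% of genes without a counterpart and 16.6% of all promoters. TATAAA was in 5.88% of stretches of muscle-type forms (Ppp1r3a), in 0 of the other classes and in 12.4% of all promoters. By gene, CANNTG was present for 9 of 11 muscle-type forms, 5 of 12 other forms and 8 of 10 genes without a counterpart. ACGTG was present for 6, 6 and 3 of them. The motifs may overlap each other, since CACGTG holds both CANNTG and ACGTG. The median number of CpG was 6 in stretches of muscle-type forms, 15 in those of the other forms, 15.5 in those of genes without a counterpart and 6 in all promoters.

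Enolase follows the mutase. Eno3, the muscle enolase, stood at 5948, 5905 and 4011 CPM in the click libraries 1 to 3, against 4029.9, 4526 and 2303 CPM in the EDC libraries 1 to 3, a log2 fold change of 0.55 (standard error 0.35, adjusted p = 0.449 by edgeR). Click replicate 3 lay below EDC replicates 1 and 2. Eno1, the enolase of most other cells, stood at 105, 85 and 128 CPM in the click libraries 1 to 3, against 151, 174 and 152 CPM in the EDC libraries 1 to 3. Every click library lay below every EDC library, and the log2 fold change was -0.58 (standard error 0.21, adjusted p = 0.299 by edgeR). Of the summed enolase level per kb, Eno3 supplied 99.4, 99.5 and 99% in click, against 98.8, 98.8 and 97.9% in EDC.

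Pyruvate kinase, Pkm, the last step, had overlapping groups, at 2880.2, 2286 and 2192 CPM in the click libraries 1 to 3, against 2184, 3109 and 1737 CPM in the EDC libraries 1 to 3, and gave 0.07 (standard error 0.30, adjusted p = 0.926 by edgeR) on the log2 scale. The table does not separate its splice forms. Lactate dehydrogenase has a muscle subunit, Ldha, which favours lactate formation, and a heart subunit, Ldhb, which is typical of oxidative fibres. Ldha stood at 3341, 3212 and 2498 CPM in the click libraries 1 to 3, against 1848, 3064 and 1526 CPM in the EDC libraries 1 to 3, a log2 fold change of 0.49 (standard error 0.33, adjusted p = 0.476 by edgeR). Ldhb, unlike most of the other forms, had the higher mean in click, at 86.8, 194 and 60.1 CPM in the click libraries 1 to 3, against 15.4, 65.3 and 42.2 CPM in the EDC libraries 1 to 3. Click replicate 2 was highest and EDC replicate 1 lowest, EDC replicate 2 lay above click replicate 3, and the log2 fold change was 1.47 (standard error 0.61, adjusted p = 0.326 by edgeR). Without click replicate 2 it was 0.84. Lactate leaves fast fibres through the transporter of Slc16a3 and enters oxidative fibres through that of Slc16a1. Slc16a3 had 152, 150.4 and 117 CPM in click, against 105, 176 and 88.6 CPM in EDC. Slc16a1 had 25.4, 44.4 and 26.5 CPM in click, against 19.5, 29.6 and 29.1 CPM in EDC. The groups overlapped for both, with log2 fold changes of 0.18 (standard error 0.29) and 0.30 (standard error 0.29), both negative with library totals alone or scaled on fast fibre reads.

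Glycogen is built from UDP-glucose, which Ugp2 makes. Ugp2 (chr11:21321138-21371201, minus strand) stood at 539, 932 and 371 CPM in the click libraries 1 to 3, against 317, 350.1 and 219 CPM in the EDC libraries 1 to 3. With TMM scaling click libraries lay above EDC libraries without overlap, click replicate 3 only just so, and the log2 fold change was 1.06 (standard error 0.38, adjusted p = 0.299 by edgeR). It was 0.62 when click replicate 2 was left out. Gyg, glycogenin, which primes the chain, averaged 283 ± 85.2 CPM in click, beside 203 ± 35 CPM in EDC, and Gbe1, the branching enzyme, 42.2 ± 7.17 CPM in click, beside 29.6 ± 14 CPM in EDC (SD, n = 3), at log2 fold changes of 0.48 (standard error 0.28) and 0.51 (standard error 0.34). Gys1, the muscle glycogen synthase that extends the chain, stood at 172, 235 and 97.2 CPM in the click libraries 1 to 3, against 138, 231 and 135 CPM in the EDC libraries 1 to 3, with click replicate 3 the lowest library of all. Its log2 fold change was 0.00176 (standard error 0.37, adjusted p = 0.999 by edgeR). Subunits that target protein phosphatase to glycogen both had higher means in click: the muscle subunit Ppp1r3a stood at 353, 388 and 248 CPM in click, against 226, 298 and 174 CPM in EDC and the widely expressed Ppp1r3c at 128, 259.5 and 136 CPM in click, against 93.2, 152 and 96.5 CPM in EDC. Their log2 fold changes were 0.50 (standard error 0.28) and 0.62 (standard error 0.35), both at 0.408 as edgeR adjusted p.

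Glycogen phosphorylase releases glucose phosphate from glycogen. Pygm, the muscle form, stood at 5416, 5158 and 4095 CPM in the click libraries 1 to 3, against 4578, 4901 and 2868 CPM in the EDC libraries 1 to 3, a log2 fold change of 0.25 (standard error 0.31, adjusted p = 0.697 by edgeR). Pygl, the liver form, stood at 4.45, 1.46 and 7.71 CPM in the click libraries 1 to 3, against 15.2, 7.33 and 23.9 CPM in the EDC libraries 1 to 3, a log2 fold change of -1.76 (standard error 0.65, adjusted p = 0.303 by edgeR). Click replicate 3 lay just above EDC replicate 2, so the groups overlapped, while the levels of click replicate 2 and EDC replicate 3 stood furthest apart. Pygb, the brain form, stood at 9.04, 3.46 and 16 CPM in click, against 11.8, 11.7 and 17.9 CPM in EDC, with a log2 fold change of -0.54 (standard error 0.51, adjusted p = 0.609 by edgeR). Of the summed phosphorylase level per kb, Pygm made up 99.9, 99.9 and 99.7% in click, against 99.7, 99.8 and 99.2% in EDC.

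Phosphorylase kinase switches phosphorylase on in response to calcium and adrenaline. Its muscle regulatory subunit Phka1, an X-linked gene, stood at 424, 500.2 and 202 CPM in the click libraries 1 to 3, against 142, 363 and 185 CPM in the EDC libraries 1 to 3, with EDC replicate 2 above click replicate 3. The muscle catalytic subunit Phkg1 averaged 464 ± 82.1 CPM in click, beside 319 ± 98.7 CPM in EDC and the shared subunit Phkb 346 ± 58.2 CPM in click, beside 231 ± 65.2 CPM in EDC (SD, n = 3). Log2 fold changes were 0.71 (standard error 0.46), 0.54 (standard error 0.29) and 0.58 (standard error 0.28), and 0.355 was the smallest of the 3 edgeR adjusted p-values. Gpd1, the cytosolic glycerol phosphate dehydrogenase that returns NADH of glycolysis to the mitochondria, stood at 626, 754 and 623 CPM in the click libraries 1 to 3, against 349, 694 and 338 CPM in the EDC libraries 1 to 3, a log2 fold change of 0.54 (standard error 0.33, adjusted p = 0.439 by edgeR). EDC replicate 2 lay within the range of the click libraries.

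A ratio of reads of a muscle-type form to reads of the other form within a library does not depend on how libraries are scaled. Such ratios were formed for 12 isoform pairs and compared by a two-sided exact permutation test of the difference in mean log2 ratio, whose smallest possible p is 0.1 with 3 libraries in each group. The difference was positive in 9 of the 12 pairs, and groups did not overlap in 2 of them. For single genes with TMM scaling, a different measure, 22.2% of all genes tested did not overlap. Pfkm and Pygm each stood in 2 of the pairs, so the 12 are not all separate. For Pgam2 over Pgam1 the log2 read ratios were 7.62, 8.32 and 6.44 in click libraries 1 to 3, against 5.26, 6.10 and 4.24 in EDC libraries 1 to 3. The mean difference of 2.26 amounts to a 4.78-fold higher ratio in click. For Eno3 over Eno1 they were 5.83, 6.12 and 4.96 in click libraries 1 to 3, against 4.74, 4.70 and 3.92 in EDC libraries 1 to 3, a difference of 1.18. Both gave an exact permutation p of 0.1, and 0.4 after Benjamini-Hochberg adjustment over the 12 pairs. Leaving out any 1 library left the difference at 1.78 to 2.77 for the mutases and 0.92 to 1.52 for the enolases.

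Other pairs overlapped between groups. The log2 read ratio of Pygm to Pygl was 10.36 ± 1.37 in click and 8.18 ± 1.24 in EDC (SD, n = 3), a difference of 2.19 with an exact permutation p of 0.2. It was 1.47 to 2.84 with 1 library left out, lowest without click replicate 2. That of Slc2a4 to Slc2a1 was 5.33 ± 0.72 in click and 3.91 ± 1.13 in EDC, a difference of 1.42 (exact permutation p = 0.2, SD over n = 3), and 0.81 without EDC replicate 3. Differences were 1.33 for Pfkm over Pfkp, 1.11 for Aldoa over Aldoc, 1.05 for Pygm over Pygb, 0.90 for Hk2 over Hk1 and 0.85 for Pfkm over Pfkl, with exact permutation p-values of 0.2 to 0.4. In the opposite direction lay Ldha over Ldhb, at 5.27, 4.05 and 5.38 in click libraries 1 to 3, against 6.91, 5.55 and 5.18 in EDC libraries 1 to 3, a difference of -0.98 (exact permutation p = 0.3). That difference was -0.56 with click replicate 2 left out, and -0.47 with EDC replicate 1 left out. The ratio of Slc16a3 to Slc16a1 and that of Ppp1r3a to Ppp1r3c were nearly level, with differences of -0.04 and -0.06. Their spread between libraries was larger than the difference, and the sign changed when click replicate 2 or EDC replicate 1 was left out, and for Slc16a3 over Slc16a1 also without EDC replicate 2. The adjusted p was 0.4 or above in all 12 pairs.

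**Figure D3:**
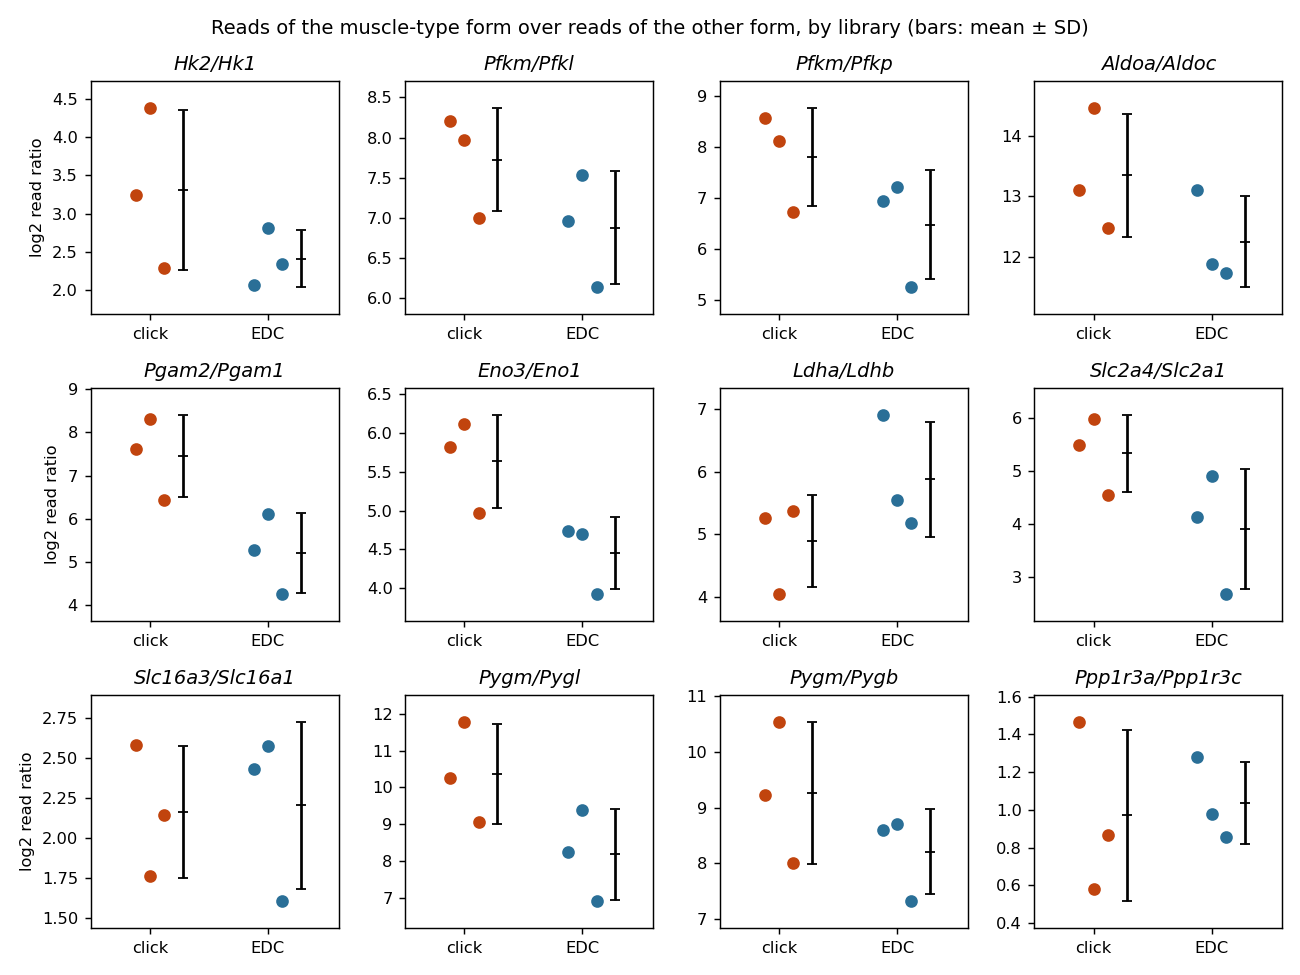
Log2 ratio of reads of the muscle-type form to reads of the other form in each library (points), with the mean and SD of each group beside them (n = 3), for 12 isoform pairs in click and EDC. Points of the groups do not overlap for Pgam2/Pgam1 and Eno3/Eno1, and overlap in the other 10 pairs.

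Summed over its isoforms, each of the 9 steps with several forms had a higher mean level per kb in click with TMM scaling, between 1.15 times the EDC mean for lactate transport and 1.75 times for phosphoglycerate mutase. The sums were not formed with other scalings. Hk2, Pfkm, Slc16a3 and Pygm, the larger part of the sum at their steps, had negative log2 fold changes with library totals alone and with fast fibre scaling. With TMM scaling the step sums of the groups did not overlap at the aldolase step only, at 3277 ± 415 CPM per kb in click and 2091 ± 542 in EDC (SD, n = 3). The muscle-type form supplied nearly all of the sum at the phosphofructokinase, aldolase, mutase, enolase and phosphorylase steps, and the least at lactate transport, where Slc16a3 made up 83.3, 73.8 and 78.7% in click, against 81.8, 83.2 and 71.7% in EDC.

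Markers of other cell types differed alongside these genes, and in bulk tissue fewer cells of a type and less RNA per cell cannot be told apart. With TMM scaling 16 of 17 macrophage markers had lower means in click, 14 of them without overlap of the groups. Of all genes tested, 12.4% lay below without overlap with that scaling. The macrophage markers summed to 226 to 1752 CPM in click and 2839.9 to 6547 CPM in EDC. None of the 17 was at 0 in any library. All 10 fibroblast markers were lower in click too, 7 without overlap, and their sum was 789.7 to 5459 CPM in click and 5819.8 to 9166 CPM in EDC, with none at 0. The sum of 10 neutrophil markers was 6.48 to 14.4 CPM in click and 16.5 to 187 CPM in EDC, and 6 of them were at 0 in at least 1 library. EDC replicate 3 had the highest macrophage sum and click replicate 2 the lowest, as for Pgam1 and Pygl. All 10 B and T cell markers were above 0 in every library. Their sum was 9.77, 95.9 and 315 CPM in click libraries 1 to 3, against 21.4, 10.9 and 16.8 CPM in EDC libraries 1 to 3. Unlike the macrophage markers, all 9 tested B and T cell markers had positive log2 fold changes, with a median of 3.20, although the sums overlapped. Endothelial markers (8, none at 0) summed to 227 to 265 CPM in click and 227 to 271 CPM in EDC. The 8 fat cell markers summed to 211 to 389 CPM in click and 271 to 397 CPM in EDC, with Plin1 and Lep at 0 in some click libraries, and 5 erythroid markers to 120.1 to 191 CPM in click and 107 to 139.8 CPM in EDC. The part of these cells in the levels of Pgam1, Eno1, Slc2a1, Pygl, Pfkl, Pfkp and Hk1 was not tested.

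Both fibre marker lists had a positive median log2 fold change with TMM scaling, as the muscle-type forms did, but the lists were unlike. Of the 14 fast fibre markers 1 lay above without overlap, and the sums of that list overlapped. Of the 12 slow fibre markers 11 lay above without overlap, with a list median of 2.90. The slow fibre list includes Myh2, a myosin of fast oxidative fibres, so it does not cover slow fibres alone. Among all genes tested the share above without overlap was 9.84%. The 14 fast fibre markers had a median log2 fold change of 0.56, beside 0.52 for the 12 muscle-type forms, with TMM scaling, and 0.06 beside 0.03 with library totals alone. Relative to the median of all genes, the fast fibre list stood at 0.54 with TMM and 0.52 with library totals alone. The 12 slow fibre markers summed to 2505 to 12752 CPM in click and 820.3 to 1569.6 CPM in EDC, without overlap, with click replicate 2 highest. That library also held the highest level of 4 muscle-type forms, 3 other forms and 7 genes without a counterpart. The part of fibre content in these levels was not tested.

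**Figure D4:**
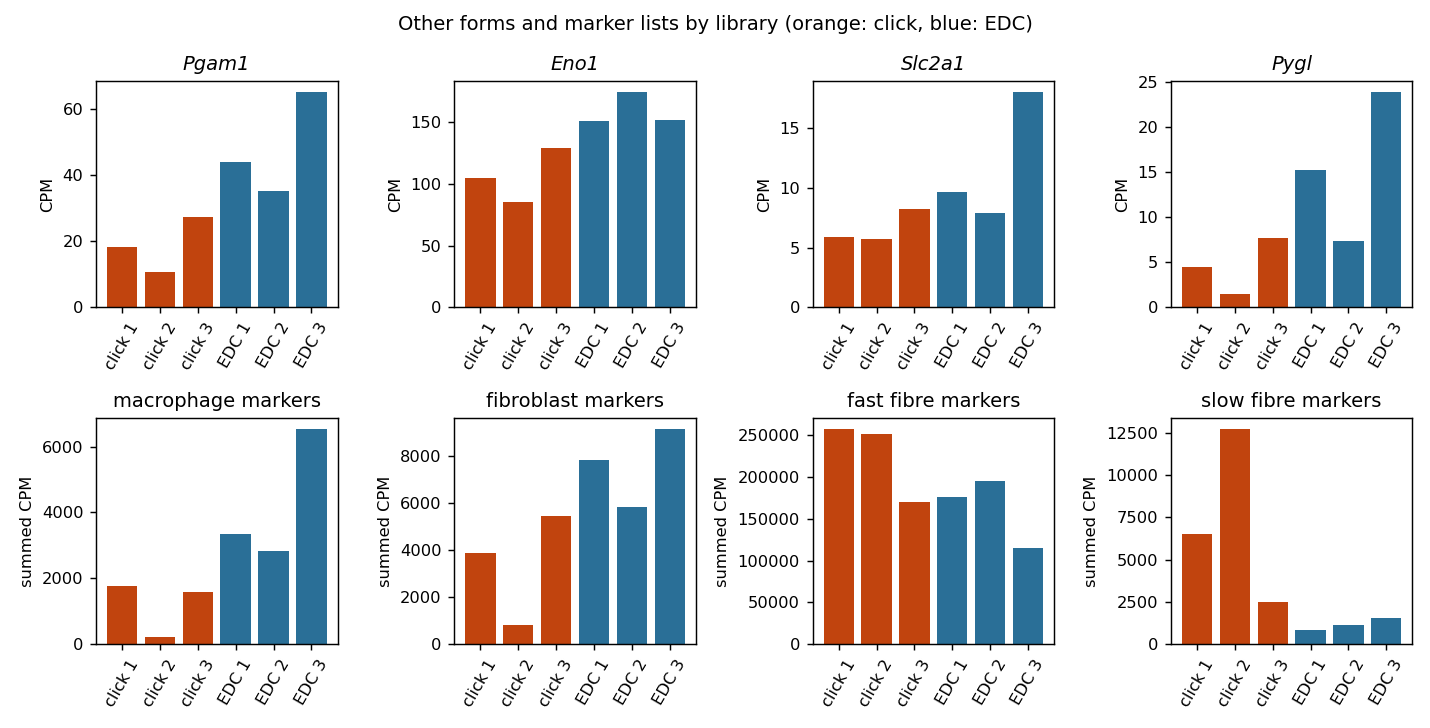
Level of Pgam1, Eno1, Slc2a1 and Pygl in CPM (top) and summed CPM of the macrophage, fibroblast, fast fibre and slow fibre marker lists (bottom) in each library, click in orange and EDC in blue, with TMM scaling. Pgam1, Eno1 and the macrophage and fibroblast sums lie lower in all 3 click libraries than in any EDC library, and the fast fibre sums overlap.

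Of 75 further genes of these pathways 69 were tested and 0 passed the edgeR test, with 13 at higher and 7 at lower levels in click at an unadjusted edgeR p under 0.05, where 7.22% and 8% of all genes tested lay there. Both directions together made up 29% of the 69 genes, beside 15.2% of all genes tested. DESeq2 called 5 of the 69, where its share among all genes tested was 3.84%. After adjustment 0 of the 69 passed limma-voom. Before adjustment 22 of them had a limma-voom p below 0.05, as did 16.3% of all genes tested. Among 27 tested genes of glycolysis and pyruvate use the smallest p-values belonged to Pfkfb3, Pdk1 and Mpc1. Pfkfb3, which makes the activator of phosphofructokinase, stood at 55.2, 68.1 and 40.4 CPM in the click libraries 1 to 3, against 18.3, 18.7 and 16 CPM in the EDC libraries 1 to 3, a log2 fold change of 1.63 (standard error 0.23, adjusted p = 0.298 by edgeR) and a DESeq2 adjusted p of 7.04e-06. The click libraries all lay above the EDC libraries. Pdk1, a kinase that shuts pyruvate dehydrogenase, averaged 78.4 ± 18 CPM in click, beside 41.8 ± 5.76 CPM in EDC, and Mpc1, a subunit of the mitochondrial pyruvate carrier, 88.9 ± 17.1 CPM in click, beside 48.5 ± 9.70 CPM in EDC (SD, n = 3). DESeq2 called both at higher levels in click (adjusted p = 0.0331 and 0.0421), while edgeR gave 0.298 for each.

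The 20 tested genes of glycogen metabolism included Ppp1r3b, the liver glycogen-targeting subunit, at 1.52, 0.546 and 1.29 CPM in the click libraries 1 to 3, against 4.55, 2.24 and 7.66 CPM in the EDC libraries 1 to 3, a log2 fold change of -2.10 (standard error 0.58, adjusted p = 0.298 by edgeR) and a DESeq2 adjusted p of 0.0223. Epm2a, the glycogen phosphatase laforin, gave 0.84 (standard error 0.27, adjusted p = 0.298 by edgeR) and Pgm2l1, a glucose bisphosphate synthase, 0.77 (standard error 0.25, adjusted p = 0.298 by edgeR). All 8 genes of the glycerol phosphate and malate shuttles were positive with TMM scaling, with a median of 0.57. Gpd2, the mitochondrial partner of Gpd1, stood at 282, 272 and 151 CPM in the click libraries 1 to 3, against 115, 122 and 65.6 CPM in the EDC libraries 1 to 3, without overlap, a log2 fold change of 1.22 (standard error 0.34, adjusted p = 0.298 by edgeR) and a DESeq2 adjusted p of 0.0361. Slc25a12, an aspartate and glutamate carrier, gave 0.69 (standard error 0.30, adjusted p = 0.334 by edgeR) and Mdh1, the cytosolic malate dehydrogenase, 0.68 (standard error 0.32, adjusted p = 0.353 by edgeR). Among 14 transcription factors Hif1a, the hypoxia-inducible factor that drives glycolytic genes, averaged 30.9 ± 8.38 CPM in click, beside 63.2 ± 31.8 CPM in EDC (SD, n = 3), a log2 fold change of -1.03 (standard error 0.38, adjusted p = 0.303 by edgeR). Esrrg, a nuclear receptor of oxidative fibres, gave 1.28 (standard error 0.38, adjusted p = 0.298 by edgeR) and Mlxipl, a glucose-responsive factor, 0.57 (standard error 0.24, adjusted p = 0.327 by edgeR).

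Reads of Phkg1 and Gys1 may likewise include some of Sumf2 and Ruvbl2, which lie on the opposite strand and share 630 and 310 bases of exon with them. Some members have near-identical copies elsewhere in the genome, and their counts are uncertain for that reason. Of the 35 members, 9 had an annotated copy with at least 95% identity over at least 300 bases. Gapdh had 77 such copies, 76 of them in the table, whose reads summed to 27.4% to 49.8% of the reads of Gapdh. As a percentage of the reads of Pgam1, those of its copy Pgam1-ps2 came to 20.04, 22.2 and 21.3% in click, against 17.1, 21.7 and 21.3% in EDC. The reads of 3 copies of Eno1 summed to 14.6% to 16.8% of its reads, and those of the copies of Pgk1 to 16.4% to 17.2%. For Pgam2, Eno3, Pfkm, Pygm, Slc2a1, Pygl and Ugp2 no such copy was found among annotated transcripts.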

How the data were processed

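RNA of mouse muscle was made into libraries with a SMARTer mRNA kit, per the labels' protocols. The authors deposited read counts per gene, whole numbers that were not normalised, on the mm10 build per the submitters' processing notes. Aligner, counting program and strand setting, not given in the sources used here, decide how reads of copies and of overlapping genes were assigned. Of 55335 rows, 3225 had no symbol (0.0631% to 0.0996% of the reads) and were left out. No column lacked a sample. Groups and replicate numbers come from the labels. The main test was the two-sided quasi-likelihood F test of edgeR 4.0.16 (R 4.3.3) with TMM factors and the default filter by group, adjusted by Benjamini-Hochberg over 15797 genes at a threshold of 0.05. Alternatives were other scalings, filters, covariates, a replicate block, DESeq2 1.42.0, limma-voom (limma 3.58.1) and leaving out each library. CPM, ratios and SDs were computed here from the deposited counts. Exon lengths (union of exons) and copies (blastn 2.17.0) come from GENCODE M21, promoters from RefSeq. All members may be named; those of isoform pairs and those at an unadjusted edgeR p under 0.05 were given by library, as were Gapdh, Pkm, Gys1 and Gpd1, and of further pathway genes the 3 with the smallest p per list. Members, lists, isoform classes and tests were chosen with earlier results of these data known. p-values reflect the spread between 3 libraries per group, and the depth of 34472421 reads or more per library limits the precision most for Aldoc, with 12 to 66 reads.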

Additional observations from a re-analysis of the deposited data

How the results depend on the processing

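Genes called by edgeR over the whole table numbered 1, the same with DESeq2 size factors, library totals, fast fibre scaling and either filter on low counts. They numbered 0 with the replicate block, with sex or the mt-Atp6 read class (a split by the mt-Atp6 read ratio, high in click replicate 2 and EDC replicates 1 and 3) as a covariate and by limma-voom (2580 at an unadjusted p under 0.05), 606 by DESeq2, and 0 to 6 with 1 library left out. Members called were 0 in every setting except DESeq2, which called 1. With the replicate block 0 genes were called, and 19 members (54.3%) lay at an unadjusted p under 0.05, beside 23.3% of all genes. With the mt-Atp6 read class 3 members (8.57%) did, beside 10.6% of all genes. The labels tie no library of a group to one of the other. Replicate 1 of both groups had female reads and the others male reads. Same-numbered libraries had deviations from the group means that correlated at -0.05, 0.19 and 0.28, and click replicate 1 correlated best with EDC replicate 2 (0.09). The muscle-type median was 0.0342 with library totals and 0.0541 with fast fibre scaling. The median of the other forms was -0.92 and -0.98 with those scalings, and -0.791 to -0.331 with 1 library left out. The muscle-type median minus that of the other forms was 0.706 to 1.46 with 1 library left out. Log2 fold changes turned negative with library totals for Hk2 (-0.0502), Pfkm (-0.16), Slc16a3 (-0.29), Pygm (-0.24), Slc16a1 (-0.20), Gpi1 (-0.22), Gapdh (-0.0426), Pkm (-0.41), Gys1 (-0.52), Gyg (-0.0432) and Tpi1 (-0.0133), and with fast fibre scaling for Hk2 (-0.0792), Pfkm (-0.14), Slc16a3 (-0.28), Pygm (-0.22), Slc16a1 (-0.26), Gpi1 (-0.21), Gapdh (-0.00894), Pkm (-0.39), Gys1 (-0.53) and Gyg (-0.0512). Pkm also turned with the mt-Atp6 read class (-0.0359), and Gys1 without a low-count filter (-0.0376), with the replicate block (-0.0422) and with limma-voom (-0.0374). With 1 library left out, ranges that crossed 0 were -0.000493 to 0.652 for Hk2, -0.00746 to 0.493 for Slc16a3, -0.00595 to 0.438 for Slc16a1, -0.660 to 0.0320 for Aldoc, -0.109 to 0.285 for Pkm and -0.318 to 0.278 for Gys1, and, for log2 read ratios, -0.341 to 0.161 for Slc16a3 over Slc16a1 and -0.314 to 0.131 for Ppp1r3a over Ppp1r3c. No other member reversed in any setting. Aldoc could not be tested under the filter at a mean of 50 reads. The exact permutation test used for ratios cannot go below 0.1 here. Whether groups overlapped was also checked under other scalings after the data were seen.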

Other observations

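One near-identical copy of Gapdh did not follow the gene. As a percentage of the reads of Gapdh, those of Gm13394 came to 4.02, 4.13 and 4.20% in click, against 23.4, 4.45 and 4.31% in EDC, with 10420, 7240 and 8769 reads in click replicates 1 to 3, against 58238, 9968 and 7290 in EDC replicates 1 to 3. EDC replicate 1 thus stood alone, while Gapdh itself was not unusual there (248523 reads). This row was singled out after its values were seen. The second row named Aldoa, not used above, held 198, 177 and 282 reads in click, against 117, 136 and 124 in EDC. As unscaled reads, all 3 click values lay above all 3 EDC values, whereas the unscaled reads of the main row overlapped between groups. With TMM scaling the groups did not overlap in the main row either. Reads of the second row amounted to 0.0377% to 0.0872% of those of the main row.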
